A study of Mus musculus with 6 samples.

Results

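The genes described here encode 3 chains of laminin and 3 receptors of the cell surface, measured in reloaded mouse soleus. They were taken by their names in the platform's annotation: Lama2, Lamb1 and Lamc1 for laminin, and Itgb1, Itgav and Cd44 for the receptors. Each gene had 1 probe, so that they make up 6 of the 203 genes that the annotation names and 6 of the array's 223 probes. All 6 mice were of the 129/SV strain, labelled WT, and had spent 7 days with the hindlimbs suspended and then 1 day reloading the muscle. The soleus is a postural hindlimb muscle. The labels name no unloaded or untreated muscle, and no sex or age. Every value below therefore belongs to reloaded muscle, and no effect of reloading was tested. The mice are named by the numbers in their sample titles: 175, 176, 177, 178, 202 and 203.

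Laminins are cross-shaped proteins of the basement membrane, the sheet of matrix that wraps each muscle fibre. Each is built from an alpha, a beta and a gamma chain, and the alpha chain carries most of the binding sites for cells. Fibres hold on to laminin through integrins, which are pairs of an alpha and a beta chain that span the membrane, and through dystroglycan. Loss of the alpha chain Lama2, the usual one around adult fibres, causes a congenital muscular dystrophy.

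Signals are expressed per mille of each array's summed signal over 221 probes. The 10th percentile of each array, called its floor here, lay between 0.5 and 0.7 per mille, and all deposited values but 1 move in steps of 0.1 per mille (tolerance 1e-06 of a step). A signal of at least 2 times the floor was called clear of it. Between 68 and 88 probes were clear on a given array. Samples 202 and 203 were compared with samples 175 to 178, since the title numbers fall into these runs, and 14 of 223 probes (6.28%) differed in limma (adjusted p under 0.05). This count was 0 without sample 202, 2 without sample 203 and 22 with arrays divided by their floor. What these runs stand for is not labelled. Sample 202 also had the lowest or tied lowest value of 66.8% of all probes. Several results that rest on these samples are given with and without sample 202, or with and without both.

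Of the 6 genes, 2 passed this limit in all mice: the laminin gamma chain Lamc1 and the integrin beta chain Itgb1. Over the whole array 57 of 223 probes (25.6%) were clear in all mice. Cd44 was clear in 1 mouse. Lama2, Lamb1 and Itgav were clear in none, so that their signals can be read neither as expressed nor as not expressed. Levels of different probes are not ranked here, because spots differ in primer efficiency and hybridization.

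**Figure D1:**
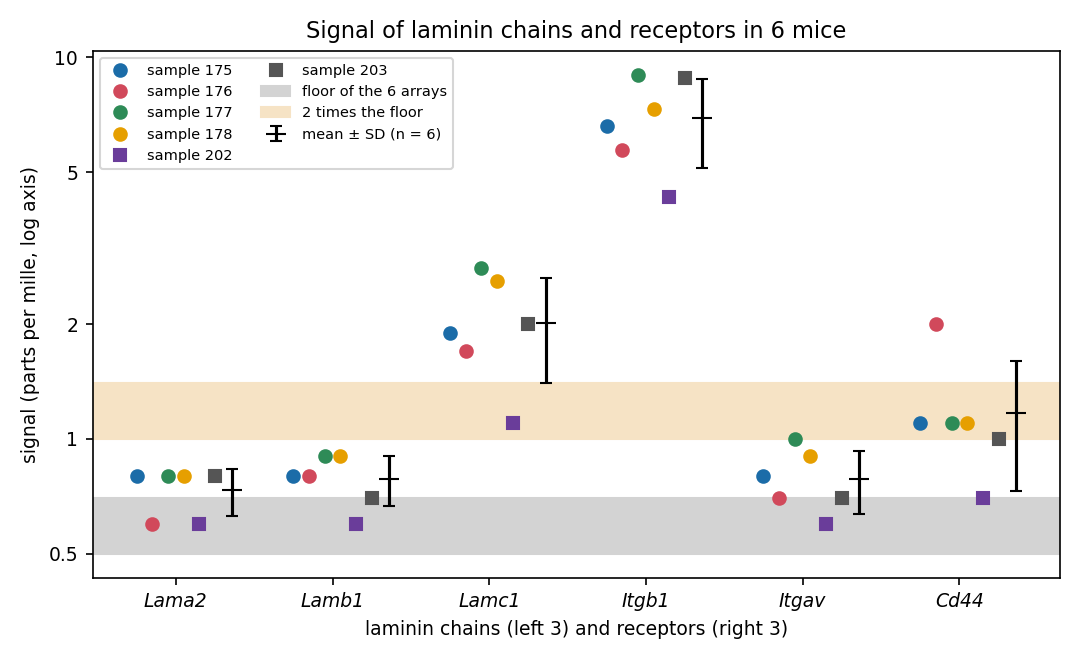
Signal of the 3 laminin chains and 3 receptors in each of the 6 mice, in parts per mille on a log axis, with the mean and SD beside the points; circles are samples 175 to 178 and squares samples 202 and 203. The grey band spans the floors of the arrays and the tan band 2 times those floors. All 6 points of Itgb1 lie above the tan band, from 4.3 to 9.0 per mille, whereas those of Lama2 lie between 0.6 and 0.8 per mille.

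Lamc1 encodes the gamma chain shared by most laminins of muscle and vessels. Its signal was 1.9 per mille in sample 175, 1.7 in sample 176, 2.8 in sample 177, 2.6 in sample 178, 1.1 in sample 202 and 2.0 in sample 203. Samples 177 and 178 were thus the highest, and sample 202 lay below every other mouse. The mean was 2.02 ± 0.618 per mille (SD, n = 6), and the highest mouse was 2.55-fold above the lowest. Relative to the floor of its own array the signal ranged from 2.2 times in sample 202 to 4.0 times in sample 177, with a mean of 3.21 ± 0.641 (SD, n = 6). Sample 202 was therefore only just clear.

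The alpha chain Lama2 took only 2 values over the 6 mice. It was 0.8 per mille in samples 175, 177, 178 and 203 and 0.6 per mille in the other 2 mice, 176 and 202, which is 1.19 ± 0.128 times the floor (SD, n = 6). The beta chain Lamb1, a partner of Lamc1 in many laminins, gave 0.8 per mille in samples 175 and 176, 0.9 in samples 177 and 178, 0.6 in sample 202 and 0.7 in sample 203. Its mean was 1.27 ± 0.0694 times the floor (SD, n = 6). In Lamb1 both samples 202 and 203 lay below the other 4 mice, by at least 1 step of the deposited values.

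Itgb1 encodes the beta chain that most laminin- and collagen-binding integrins share. It gave 6.6 per mille in sample 175, 5.7 in sample 176, 9.0 in sample 177, 7.3 in sample 178, 4.3 in sample 202 and 8.8 in sample 203. Samples 177 and 203 were the highest and sample 202 was again the lowest. The mean was 6.95 ± 1.81 per mille (SD, n = 6), with the highest mouse 2.09-fold above the lowest. Every mouse was far from the floor, between 8.6 and 14.7 times it, with a mean of 11.2 ± 2.24 times (SD, n = 6).

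Itgav encodes the alpha chain of the integrins that bind fibronectin and vitronectin. It gave 0.8 per mille in sample 175, 0.7 in samples 176 and 203, 1.0 in sample 177, 0.9 in sample 178 and 0.6 in sample 202. This was 1.26 ± 0.105 times the floor (SD, n = 6). The mice therefore differed by at most 0.4 per mille, or 4 steps of the deposited values.

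Cd44 encodes the main receptor for hyaluronan, a large sugar polymer of the matrix, and is found on many leukocytes, fibroblasts and myoblasts. Its signal was 1.1 per mille in samples 175, 177 and 178, 0.7 in sample 202 and 1.0 in sample 203, but 2.0 in sample 176. The mouse of sample 176 alone was clear of the floor, at 3.33 times it, and the other mice lay between 1.4 and 1.83 times. The mean was 1.17 ± 0.437 per mille over all mice (SD, n = 6) and 1.00 ± 0.173 per mille without sample 176 (SD, n = 5). Sample 176 stood 1.82-fold above the next highest mouse for Cd44. No other probe on the array had such a ratio in that sample, and 19 of 223 probes (8.52%) were highest there.

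The sequence upstream of a transcript start is shown for the 2 receptors that were clear of the floor in any mouse, Itgb1 in all and Cd44 in sample 176. Both are from RefSeq (GRCm38.p6), cover 250 to 11 bases before the start, and lie outside the transcribed gene. The Itgb1 stretch is chr8:128685404-128685643 on the plus strand and the Cd44 stretch chr2:102901676-102901915 on the minus strand. Capitals mark GC boxes (GGGCGG or its complement on the other strand).
Itgb1: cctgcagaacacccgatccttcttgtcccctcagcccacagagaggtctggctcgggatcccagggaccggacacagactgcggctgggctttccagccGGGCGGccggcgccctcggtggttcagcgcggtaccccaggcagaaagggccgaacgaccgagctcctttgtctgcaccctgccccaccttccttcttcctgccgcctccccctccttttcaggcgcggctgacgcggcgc
Cd44: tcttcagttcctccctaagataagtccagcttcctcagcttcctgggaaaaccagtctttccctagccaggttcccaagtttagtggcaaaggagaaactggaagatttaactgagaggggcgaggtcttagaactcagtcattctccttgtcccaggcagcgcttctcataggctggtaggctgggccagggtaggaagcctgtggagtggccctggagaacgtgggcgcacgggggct

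The Itgb1 stretch held 1 GC box and 20 CpG pairs, and the Cd44 stretch held 0 GC boxes and 5 CpG pairs. A GC box occurs in 31.3% of the 32851 stretches of the same length in the table, and their median number of CpG pairs is 5. Neither stretch held a TATA box (TATAAA, in 12.1% of all stretches) or an AP-1 site (TGANTCA, in 6.58%), searched on both strands. These matches describe the letters only, and no value of the array bears on the promoters. The table had an entry for 5 of the 6 genes, all but Lamc1.

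The spread between mice was wider for Cd44, Lamc1 and Itgb1 than for most probes. On the log2 scale the SD between mice was 0.49 for Cd44, 0.48 for Lamc1 and 0.40 for Itgb1, against a median of 0.27 over all 223 probes. A larger SD was found for 5.83% of all probes than for Cd44, for 6.73% than for Lamc1 and for 13.5% than for Itgb1. Itgav lay at the median (0.27), and Lamb1 (0.23) and Lama2 (0.21) below it. Among the 57 probes that were clear in every mouse, 10.5% had a larger SD than Lamc1 and 24.6% a larger one than Itgb1. With 1 array per mouse, this spread includes that between labellings and arrays.

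Part of the spread came from single samples. Without sample 176 the SD of Cd44 was 0.28 on the log2 scale, against a median of 0.27 over all probes. Without sample 202 the SD was 0.31 for Lamc1 and 0.28 for Itgb1, against a median of 0.20. With arrays divided by their floor the SD was 0.45 for Cd44, 0.31 for Lamc1 and 0.28 for Itgb1, against a median of 0.20 over all probes. With quantile normalization it was 0.48 for Cd44, 0.41 for Lamc1 and 0.52 for Itgb1, against a median of 0.17. Itgb1, Lamc1 and Cd44 were above the median probe in both settings.

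**Figure D2:**
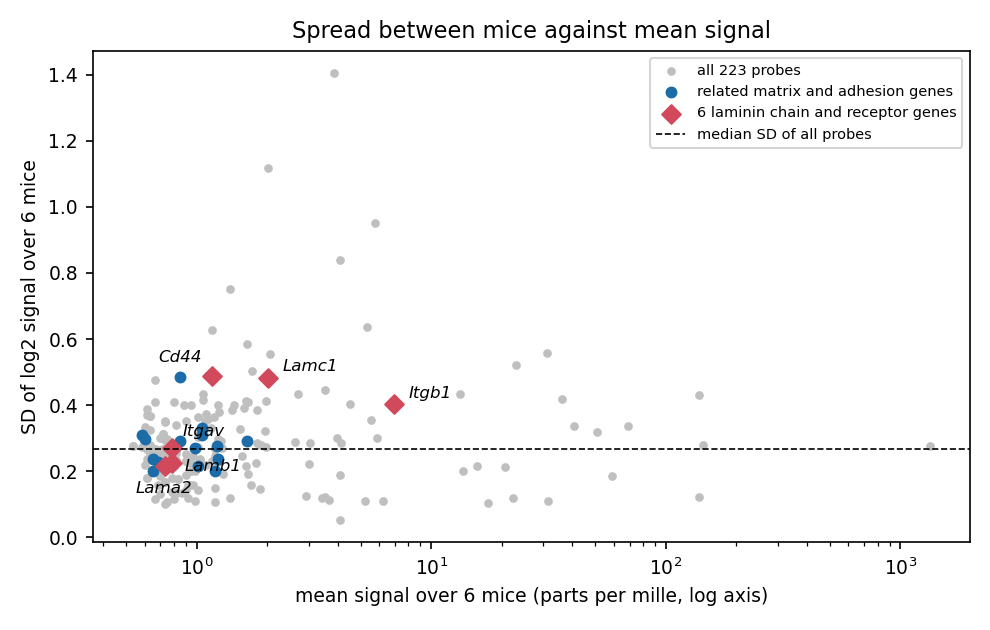
SD between the 6 mice on the log2 scale (vertical axis) against mean signal in parts per mille (log axis) for all 223 probes in grey, 15 related matrix and adhesion genes in blue and the 6 laminin chain and receptor genes as red diamonds; the dashed line is the median SD of 0.27. Cd44, Lamc1 and Itgb1 lie above the line at 0.49, 0.48 and 0.40.

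Whether the laminin chains varied with the receptors was examined over the 6 mice. Pearson's r of log2 signal was computed for all 24753 pairs of probes with an exact two-sided permutation test over all 720 pairings, and p-values were adjusted over all these pairs (Benjamini-Hochberg). Of the 15 pairs of members, 4 (26.7%) had an unadjusted p under 0.05, compared with 13.7% of all probe pairs. After adjustment 0 pairs passed, in the members and over the whole array, and the smallest adjusted p was 0.254. The members' median r was 0.73, and that of all pairs was 0.37. Sample 203 lay within the range of samples 175 to 178 for 4 of the 6 members, and sample 202 for 1. Lamb1 and Cd44 apart, the values of the 2 runs overlapped or touched. The run difference of Lamc1 still had an unadjusted limma p of 0.0376 (adjusted p = 0.186). For all member pairs r is given over all mice. For the 4 pairs with an unadjusted p under 0.05, r after centring each run on its own mean is given beside it.

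Lamc1 and Itgb1, the 2 genes clear of the floor in every mouse, had r = 0.89 and Spearman's rho = 0.94 over the 6 mice (exact permutation p = 0.0194 and 0.0167, adjusted p = 0.271 and 0.332). In both genes sample 202 was the lowest, sample 176 the next lowest and sample 177 the highest. After centring within runs r was 0.95 (exact permutation within runs, p = 0.0417, adjusted p = 0.528), where 4.7% of all probe pairs had a p under 0.05. The relation rested in part on sample 202: without it r was 0.68 (exact permutation p = 0.242, n = 5). Sample 203 was still included there. Without both samples 202 and 203, r was 0.93 (exact permutation p = 0.0833). Without samples 177 and 202, the mice farthest from the Lamc1 median, r was 0.48. Without sample 203, r was 0.98 (exact permutation p = 0.00833, n = 5), which is the smallest p that 5 mice allow.

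The ratio of 2 probes on one array does not depend on how that array was scaled. The log2 ratio of Itgb1 to Lamc1 had an SD of 0.23 over the 6 mice, lower than the SD of either gene alone (0.40 and 0.48). Over the 1596 pairs of probes that were clear in all mice the median SD of the log2 ratio was 0.40, and 12.0% of pairs had a smaller one. The correlation of these clear pairs had a median of -0.01, and 2.26% of them had an r at least as high as Lamc1 with Itgb1. An unadjusted p under 0.05 was found in 6.64% of the clear pairs.

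**Figure D3:**
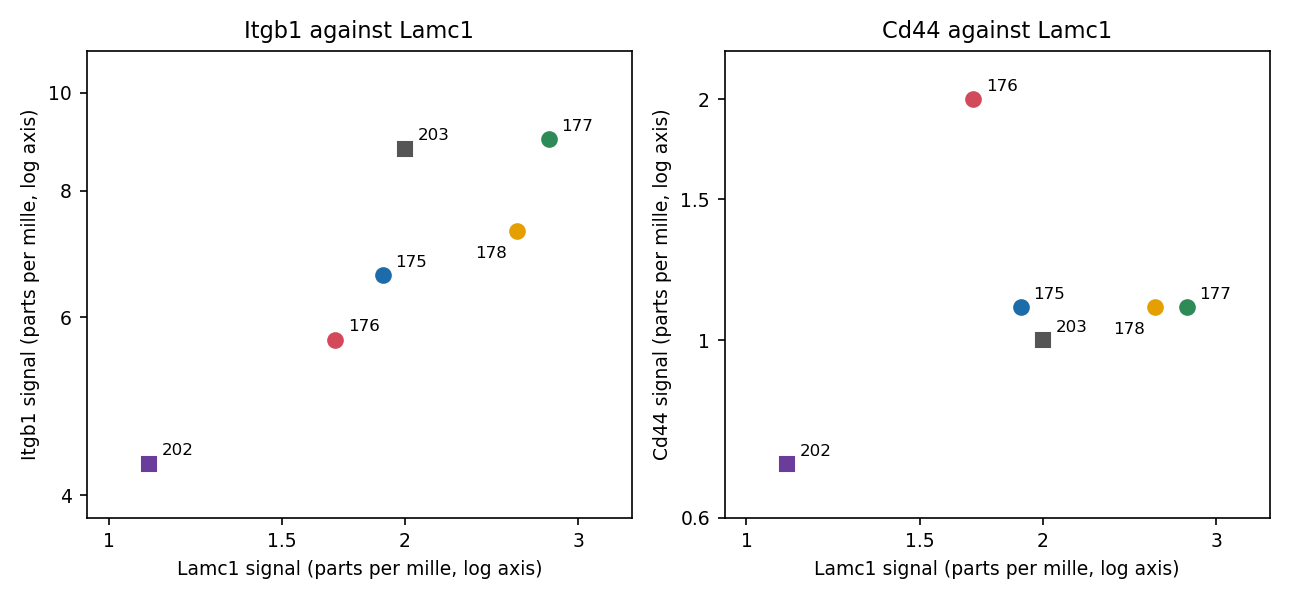
Signal of Itgb1 (left) and of Cd44 (right) against that of Lamc1 in each mouse, in parts per mille on log axes; circles are samples 175 to 178 and squares samples 202 and 203. On the left the mice run from sample 202 at the lower left to sample 177 at the upper right, with r = 0.89, and on the right sample 176 stands above the other mice at 2.0 per mille of Cd44, with r = 0.31.

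The other 3 pairs with an unadjusted p under 0.05 held at least 1 gene near the floor. Lamc1 with Itgav had r = 0.93 and rho = 0.90 (exact permutation p = 0.00556 and 0.0278, adjusted p = 0.254 and 0.366). After centring within runs r was 0.90 (exact permutation p = 0.0208), which is the smallest p that the 48 pairings within runs allow. Lamb1 with Itgav had r = 0.92 and rho = 0.94 (exact permutation p = 0.0222 and 0.0111, adjusted p = 0.271 and 0.332). Lamb1 with Lamc1, a pair of chains of one laminin, had r = 0.90 and rho = 0.79 (exact permutation p = 0.0167 and 0.0667, adjusted p = 0.254 and 0.376). After centring within runs r was 0.86 for Lamb1 with Itgav and 0.99 for Lamb1 with Lamc1 (exact permutation within runs, p = 0.167 for both). Lamb1 was tied in samples 175 and 176 and in samples 177 and 178, so that neither pair could have a smaller p. Without samples 202 and 177, r of Lamc1 with Itgav was 0.83. It was 0.91 without sample 202 alone (exact permutation p = 0.05, n = 5). Without samples 202 and 203 it was 0.97 (exact permutation p = 0.0417, n = 4), the smallest p that 4 mice allow. Without sample 202 alone, r was 0.86 for Lamb1 with Itgav (exact permutation p = 0.10, n = 5) and 0.71 for Lamb1 with Lamc1 (exact permutation p = 0.20, n = 5). Without samples 202 and 203 it was 0.89 and 0.97 (exact permutation p = 0.333 for both, n = 4). Here too the ties of Lamb1 allowed no smaller p.

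The level of the arrays moved with these values. Array floors ran from 0.5 per mille (sample 202) to 0.7 (samples 177 and 178), and were 0.6 in the other 3 mice. Probe 1M, left out of the scale, gave 968.1 per mille in sample 202, 1580.3 in sample 177 and 1644.9 in sample 178. It gave 1214.1 to 1305.4 per mille in the other 3 mice. All 6 members were lowest or tied for lowest in sample 202, as were 66.8% of all probes, and 5 of 6 were highest or tied for highest in sample 177, as were 43.5% of all probes. With every array divided by its floor, 0 of 15 pairs had an unadjusted p under 0.05, against 8.23% of all pairs: r fell to 0.71 for Lamc1 with Itgb1, 0.63 for Lamc1 with Itgav, 0.44 for Lamb1 with Itgav and 0.26 for Lamb1 with Lamc1. With arrays centred on their median, where 11.4% of all pairs had such a p, Lamb1 with Itgav alone remained (r = 0.82, exact permutation p = 0.0167), and Lamc1 with Itgb1 had r = 0.79 (exact permutation p = 0.0583). With quantile normalization, where 8.34% of all pairs did, Lamc1 with Itgb1 (r = 0.94, exact permutation p = 0.00556) and Lamc1 with Itgav (r = 0.81, exact permutation p = 0.0417) were under 0.05. Without sample 202 the count was 0 of 15, against 2.92% of all pairs. Without sample 177 it was 0 (3.74% of all pairs), and without sample 178 it was 1 (3.75%).

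**Figure D4:**
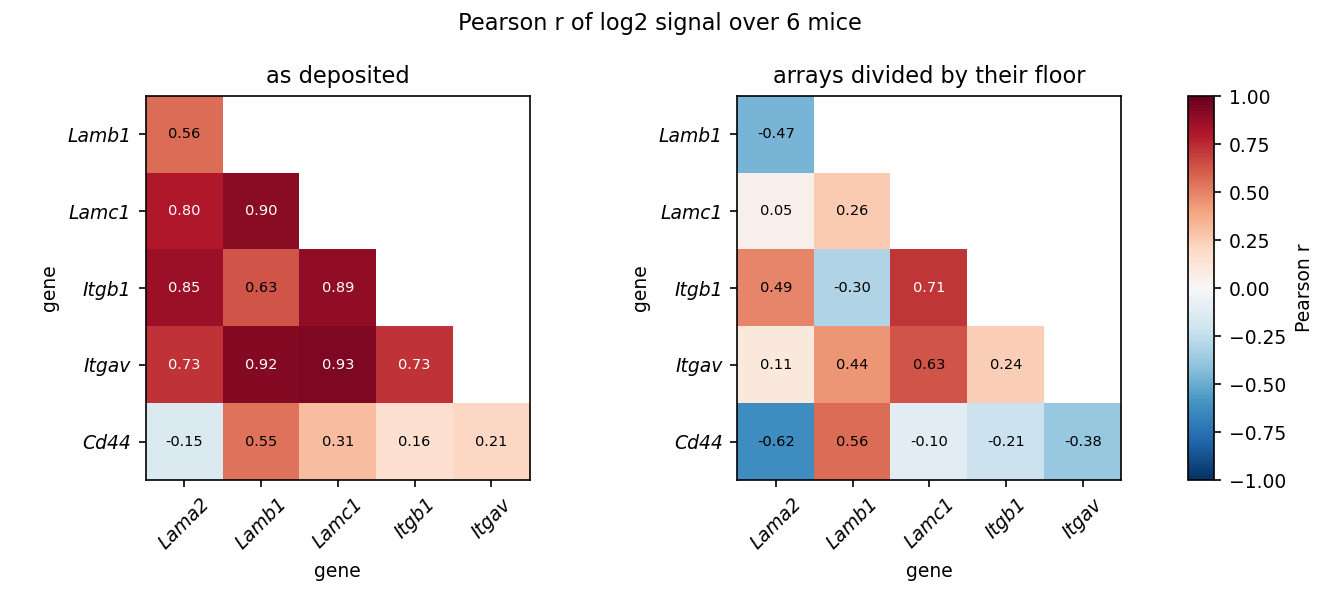
Pearson r of log2 signal over the 6 mice for the 15 pairs of laminin chain and receptor genes, as deposited (left) and with each array divided by its floor (right); red is positive and blue negative. The pairs without Cd44 run from 0.56 to 0.93 on the left, whereas on the right the pair of Lamc1 and Itgb1 is at 0.71 and that of Lamb1 and Lamc1 at 0.26.

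Lama2 had r = 0.85 with Itgb1, 0.80 with Lamc1 and 0.73 with Itgav (exact permutation p = 0.0667, 0.0667 and 0.20, adjusted p = 0.318, 0.318 and 0.492). It takes only 2 values, so that 15 distinct pairings exist and none of the 5 pairs with Lama2 could have a p under 0.0667. The count of 4 pairs therefore came from 10 that could be called. How many of all probe pairs could be called was not counted. The share of 13.7% of all pairs thus stands beside 4 of 15, not beside 4 of 10. Without sample 202, r of Lama2 was 0.74 with Itgb1, 0.63 with Lamc1 and 0.53 with Itgav (n = 5). Without its 2 farthest mice Lama2 is constant and has no r. With arrays divided by their floor r was 0.49 with Itgb1, 0.05 with Lamc1 and 0.11 with Itgav, and with quantile normalization all 3 lay between -0.06 and 0.01. The 5 pairs with Cd44 had r between -0.15 with Lama2 and 0.55 with Lamb1 and no unadjusted p under 0.233 (exact permutation, adjusted p of at least 0.529). These values turned on single samples. Without sample 176, r with Cd44 was 0.98 for Lama2, 0.90 for Lamb1, 0.92 for Lamc1, 0.84 for Itgb1 and 0.85 for Itgav (n = 5). Without sample 202 it was -0.99, 0.02, -0.57, -0.78 and -0.42 in the same order (n = 5). The smallest unadjusted exact permutation p of these 10 values was 0.05, for Lamb1 and for Itgav without sample 176. Cd44 had the highest signal in sample 176, where Lama2 was at its lowest value and Lamc1 and Itgb1 were at their next lowest.

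In the comparison of samples 202 and 203 with samples 175 to 178, 0 of the 6 genes passed an adjusted p of 0.05 in limma, and 2 had an unadjusted p under 0.05, where 22.9% of all probes did. All 6 differences were below 0, with a median of -0.38 on the log2 scale against -0.18 over all probes. Below 0 were 4 of 6 without sample 202 and 4 of 6 with arrays divided by their floor. Itgb1 was at 0.32 and 0.05 and Lama2 at 0.10 and 0.14 in these settings. With quantile normalization 5 of 6 were below 0 and without sample 203 all 6 were. Itgb1 was at -0.72 and -0.71 there. Without sample 202 the difference of Lamc1 was -0.14. The mean of Lamc1 was 1.55 per mille in samples 202 and 203 and 2.25 in samples 175 to 178, a log2 difference of -0.57 (SE 0.25, limma adjusted p = 0.186). That of Cd44 was 0.85 against 1.32 per mille, a log2 difference of -0.61 (SE 0.25, limma adjusted p = 0.154). That of Itgb1 was 6.55 against 7.15 per mille, a log2 difference of -0.20 (SE 0.26, limma adjusted p = 0.631), and its samples overlapped. In 2 of the 6 genes, Lamb1 and Cd44, both samples lay below all 4 others, as in 13.9% of all probes. Without sample 177, Cd44 passed (limma adjusted p = 0.0483), in a setting where 20 of 223 probes (8.97%) did.

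A list of 66 further genes of laminins, integrins, basement membranes and their neighbours was drawn up from general knowledge, and the array held 15 of them on 16 probes. Fibronectin (Fn1), a ligand of Itgb1 and Itgav integrins, was clear in all mice on the brighter of its 2 probes, at 1.63 ± 0.294 per mille (SD, n = 6). Of the other 14 genes, 6 were clear in some mice and 8 in none. Clear in some were the laminin chains Lama3 (1 mouse), Lama4 (2) and Lamb2 (2), the integrin chains Itga8 (1) and Itgb5 (3), and tenascin-C (Tnc, 3 mice). The laminin chains Lama5 and Lamb3, the collagen-binding integrin chain Itga2, the adhesion molecule Vcam1, thrombospondin (Thbs1) and the proteases Mmp2, Mmp9 and Mmp14 were clear in none. Of all 8 laminin genes and 5 integrin genes on the array, Lamc1 and Itgb1 were thus the only 2 clear in every mouse.

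The laminin chains Lama3, Lama4 and Lamb2 differed in pattern from Lamc1. Lama4, an alpha chain of vessels, gave 0.9 per mille in sample 175, 0.8 in sample 176, 1.1 in sample 177, 1.0 in samples 178 and 202 and 1.5 in sample 203. Lamb2, the beta chain of the neuromuscular junction, gave 1.0 per mille in sample 175, 0.9 in sample 176, 1.3 in samples 177, 178 and 202 and 1.5 in sample 203. Both were thus highest in sample 203 and not low in sample 202, unlike Lamc1. Lama3, an alpha chain best known from epithelia, gave 0.5 per mille in sample 176 and 1.4 in sample 203, with the other 4 mice between 0.7 and 0.9. Over the 6 mice r with Lamc1 was 0.22 for Lama4, 0.22 for Lama3 and 0.17 for Lamb2 (exact permutation p = 0.669, 0.706 and 0.75, smallest adjusted p = 0.85). After centring within runs these values were 0.98, 0.96 and 0.88 (exact permutation within runs, p = 0.0208, 0.0208 and 0.0417). Within runs 0.0208 is the smallest p possible, and 4.7% of all probe pairs had a p under 0.05. After adjustment over all pairs within runs, no p was under 0.528. With Itgb1, the within-run r was 0.99 for Lama4 and 0.94 for Lama3 (exact permutation p = 0.0417 for both), against 0.59 and 0.56 over all mice (exact permutation p = 0.219 and 0.225). For Lamb2 it was 0.71 (exact permutation p = 0.0833), against 0.39 over all mice (exact permutation p = 0.442).

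Over the 16 probes of the list, 7 had an unadjusted p under 0.05 with Lamc1 and 5 with Itgb1 (exact permutation). Over all probe pairs the share was 13.7%, but most of those pairs hold neither gene. The share of all probes with such a p with Lamc1, or with Itgb1, was not counted. After adjustment over all pairs 0 passed (exact permutation, smallest adjusted p = 0.254). The 7 with Lamc1 were Mmp2 (r = 0.99), Thbs1 (0.97), the dimmer Fn1 probe (0.96), Lama5 (0.93), Lamb3 (0.91), Itga2 (0.90) and Mmp14 (0.86). Without sample 202 these values were 0.95, 0.90, 0.95, 0.82, 0.79, 0.70 and 0.60 in the same order. None of the 7 was clear in any mouse. The dimmer Fn1 probe lay at 0.8 to 1.0 times the floor, and so did Itga2. These pairs were not examined with arrays divided by their floor. With Itgb1, Mmp14, a membrane-bound protease that cleaves matrix proteins, had r = 0.99 (exact permutation p = 0.00556, adjusted p = 0.254) and r = 0.98 without sample 202. The other 4 fell further without that sample, to 0.72 for Lama5, 0.53 for Thbs1, 0.45 for the dimmer and 0.35 for the brighter Fn1 probe. Mmp14 itself ranged only from 0.6 to 0.9 per mille, or 3 steps. In limma 0 of the 15 genes differed between the number runs after adjustment, against 6.28% of all probes. An unadjusted p under 0.05 was found for 5 of the 15, against 22.9% of all probes. The integrin chain Itga8, the only gene of the list with both samples 202 and 203 above all 4 others, had a log2 difference of 0.47 (SE 0.19, limma adjusted p = 0.154). Such a separation was seen in 7.17% of all probes.

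**Figure D5:**
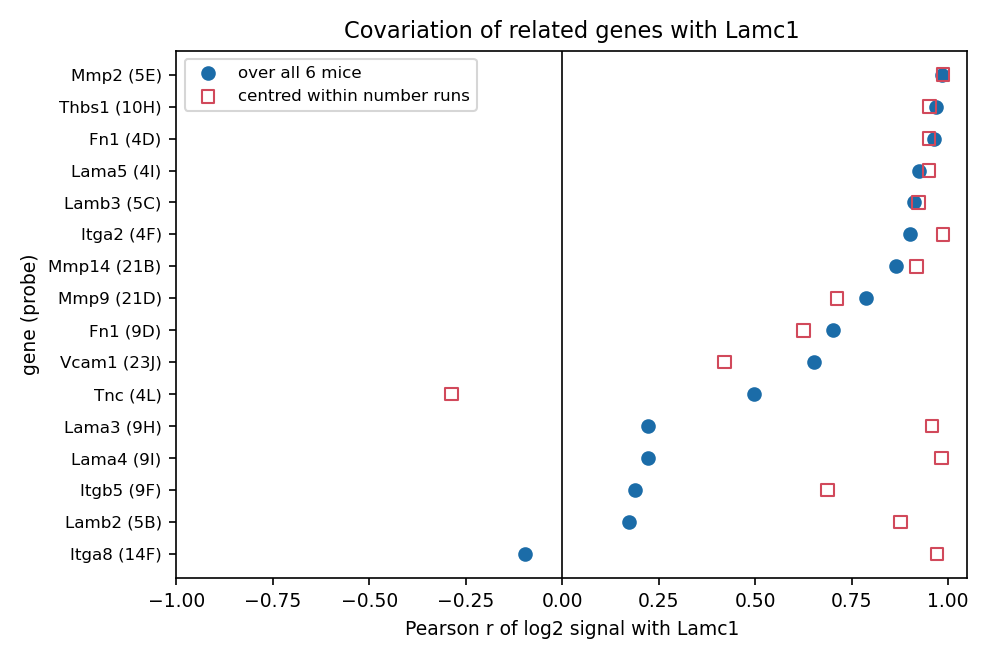
Pearson r of log2 signal with Lamc1 for the 16 probes of the related genes, over all 6 mice (blue circles) and after centring within the runs of title numbers (open red squares). Lama3, Lama4, Lamb2 and Itga8 lie between -0.10 and 0.22 over all mice and between 0.88 and 0.98 within runs, whereas Mmp2 is at 0.99 in both.

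Among the other 54 named probes that passed the limit in every mouse, those most like Lamc1 over the 6 mice were Igf2r, a receptor that takes up the ligand Igf2 and sorts lysosomal enzymes (r = 0.99), Timp3, a matrix-bound inhibitor of metalloproteinases (r = 0.98), and Itgb1 itself (r = 0.89). Timp3 gave 1.9 per mille in samples 175 and 203, 1.8 in sample 176, 2.2 in samples 177 and 178 and 1.3 in sample 202, the same order of mice as Lamc1 but for ties. Those most like Itgb1 were the myogenic factor Myf6 (r = 0.91), Igf2r (r = 0.91) and Lamc1. These are the highest of 54 values each, chosen for their size, and are given without a test.

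Markers of the cell types that a muscle section can hold were measured in part. All 5 measured fibre markers (Myh7, Myh2, Ttn, Des and Mb, of 7 listed) were clear in every mouse, with a summed signal from 178 to 235 per mille. Of 5 measured endothelial markers 1, Pecam1, was clear in all mice, and their sum ran from 5.1 to 8.3 per mille. Pdgfra was the only fibroblast marker measured, at 0.8 to 1.5 per mille. Il1b, the only leukocyte marker measured, gave 0.5 to 0.7 per mille and never passed the limit. Fabp4, the only listed fat cell marker measured, gave 3.5 to 6.8 per mille. Of 4 measured satellite cell markers 1, Cd34, was clear in all mice and 2 were clear in none. Whether a marker's signal came from its listed cell type was not tested. Pdgfra and Fabp4 were lowest in sample 202, as were Lamc1, Itgb1 and 66.8% of all probes. The summed endothelial markers gave 5.7 per mille there, above samples 175 (5.6) and 176 (5.1), and the summed fibre markers were highest there. The part of these cells in the spread of Lamc1, Itgb1 and Cd44 was not tested. In bulk tissue, fewer cells of a type and less RNA per cell cannot be told apart.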

How the data were processed

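Per the labels' protocols, total RNA from cryosections of the soleus belly was isolated with a column kit, and 4 micrograms were reverse transcribed with gene-specific primers and a radioactive nucleotide. The authors deposited 1 table of linear signal for 223 probes and 6 mice, with 1338 values and none at or below 0. For scanner, background treatment and normalization, the sources used here give nothing. Without probes 1M and 1O each array's remaining 221 probes had a summed signal of 0.999 to 1.00. It was therefore read as parts of that total, a scale found from the values. A bright probe that rises lowers all others. Depth is unknown, so precision rests on the number of arrays.

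Probes were named from the platform annotation (205 of 223, 204 matched by gene number to RefSeq). All 6 samples form 1 group. The series text calls them biological replicas. Limma p-values set a difference against the spread between these samples, which includes technical spread. Permutation p-values give the share of re-pairings of the samples with an r at least as large in size. Signals were used on the log2 scale with no pseudocount. Pair correlations used exact permutation, and runs of title numbers were compared with limma 3.58.1 (R 4.3.3), both over all probes with Benjamini-Hochberg adjustment. Other steps used Python 3.11.15. The tests were checked on simulated data. Named genes were the 6 members, list genes on the array and the 3 clear, named probes most like each member clear in all mice; the dimmer Fn1 probe is included. Sample 176 was looked at for Cd44 after its values were seen. The members, lists and the definition of clear were chosen with earlier results of these data known. The alternatives are those in the closing section.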

Additional observations from a re-analysis of the deposited data

Results flagged for a closer look

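Dixon's test, which asks whether an extreme mouse lies too far from the next one, was applied to 22 sets of 6 values, those of the 6 genes and of the 16 probes of related genes. Of these, 3 sets exceeded its 95% limit. Chance singles out about 1 in 20 sets, and the sets share the same 6 arrays. For Cd44, sample 176 was the highest, at 2.0 per mille against 0.7 to 1.1 in the others, with a gap of 0.692 of the range. For the dimmer Fn1 probe, sample 202 was the lowest, at 0.4 per mille against 0.6 to 0.7, with a gap of 0.667. For Vcam1, sample 202 was the lowest, at 0.5 per mille against 0.7 to 0.8, with a gap of 0.667. The Fn1 probe and Vcam1 lay near the floor in every mouse, and their gaps were 2 steps of the deposited values.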

How the results depend on the processing

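Clear of the floor in all mice were 2 of the 6 genes, and this count held with 1.5 times the floor, with the 5th or 20th percentile as floor, without each mouse and without samples 202 and 203; at 3 times the floor it was 1, Itgb1. The count of members with an SD above the median probe was 4 and ran from 3 to 5 over all alternatives. The count of member pairs with an unadjusted exact permutation p under 0.05 was 4. The share of all probe pairs with such a p is given in brackets (13.7% as deposited). The count was 1 with arrays centred on their median (11.4%), 2 with quantile normalization (8.34%), 0 with arrays divided by their floor (8.23%) and 1 without samples 202 and 203 (0.85%), where 4 mice allow no p under 0.0417. Leaving out each mouse gave 0 to 6 (2.92% to 9.4%). It was 4 with a pseudocount of 0.6 per mille (13.5%) or 50% of the floor subtracted (11.3%), 3 with Spearman's rho (10.6%) and 3 within runs (4.7%). In each of these settings 0 pairs passed after adjustment over all probe pairs. The count of genes that differed between number runs was 0 in every alternative, except for 1, Cd44, without sample 177, where 8.97% of all probes were called (0 to 1 without each mouse). Leaving out samples 202 and 203 and subtracting part of the floor were chosen after seeing the data. The causes were not tested. Dim probes limit what can be read: 121 of 223 were clear in no mouse. No paired analysis was possible because the labels give 1 group.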
